A study of Mus musculus with 16 samples.

Results

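Hearts under mechanical load switch on a small set of stress genes. Described here are 8 genes linked to hypertrophy and this response, in mice with 1 or 2 transgenes that act on NF-κB signalling: Nppa, Nppb, Ankrd1, Rcan1, Fhl1, Gata4, Mef2c and Uchl1. Every array probe carrying one of these gene symbols was taken, which gave 13 of the 25697 probes, and 8 of the 16593 genes named on the array. A probe was called detected on an array where its deposited detection p-value was under 0.01, and it was tested where it was detected on 4 or more of the 16 arrays. By this rule 7 of the 8 genes and 12 of their 13 probes were tested, among 9449 probes of 6902 genes. The single Gata4 probe was detected on 3 arrays and was not tested.

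RNA came from the left ventricle of male mice, with 4 hearts in each of 4 genotypes and 1 array for each heart. TRAF2LC mice (Myh6-TRAF2LC) overexpressed TRAF2, an adapter protein of tumour necrosis factor receptors, and IκBαΔN mice (Myh6-IκBαΔN, IkBaDN in the plots) overexpressed a mutated form of IκBα, the inhibitor that holds NF-κB in the cytoplasm. Double transgenic mice carried both transgenes, and the controls were littermates, called wild type in the design text. The Myh6 promoter, that of the cardiomyocyte myosin heavy chain α, drives both transgenes and directs them to cardiomyocytes. Transgenic lines, age and whether litters were shared across genotypes were not given in the sources used here.

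Nppa and Nppb encode the natriuretic peptides ANP and BNP, hormones that cardiomyocytes release when the wall is stretched and that raise cyclic GMP in vessels and kidney. Nppa is mainly an atrial gene in the adult mouse and is switched back on in the ventricle during hypertrophy. Ankrd1 encodes CARP, an ankyrin repeat protein that sits on titin in the sarcomere and also enters the nucleus, and Rcan1 encodes an inhibitor of calcineurin, the phosphatase that activates NFAT transcription factors. Fhl1 is a LIM domain protein bound to titin, Gata4 and Mef2c are transcription factors of cardiac genes, and Uchl1 is a deubiquitinating enzyme best known from neurons.

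The promoter sequences of 4 members are shown because the results turn on Ankrd1 and Rcan1, with both natriuretic peptide genes as the textbook stress promoters beside them. Each is the 250 bases before a transcription start in RefSeq (GRCm38.p6), on the strand of the gene. Capitals mark every match, on either strand, to GATAA (the core bound by GATA factors), CATTCC (the M-CAT element of TEAD factors) or GGAAA (the core of NFAT sites). The windows lie at chr19:36119845-36120094 on the minus strand for Ankrd1, chr16:92400079-92400328 on the minus strand for 1 of the 2 Rcan1 starts, chr4:147985650-147985899 on the plus strand for Nppb and chr4:148000472-148000721 on the plus strand for Nppa.
Ankrd1: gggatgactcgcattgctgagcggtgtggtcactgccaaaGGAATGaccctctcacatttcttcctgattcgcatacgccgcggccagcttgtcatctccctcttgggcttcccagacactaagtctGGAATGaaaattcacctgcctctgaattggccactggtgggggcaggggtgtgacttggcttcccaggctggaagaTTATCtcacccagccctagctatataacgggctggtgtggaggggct
Rcan1: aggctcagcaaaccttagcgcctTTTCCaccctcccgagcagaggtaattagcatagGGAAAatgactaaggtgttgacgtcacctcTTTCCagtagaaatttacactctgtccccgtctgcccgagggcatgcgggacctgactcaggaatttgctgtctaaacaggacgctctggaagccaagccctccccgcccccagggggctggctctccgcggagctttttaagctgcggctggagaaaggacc
Nppb: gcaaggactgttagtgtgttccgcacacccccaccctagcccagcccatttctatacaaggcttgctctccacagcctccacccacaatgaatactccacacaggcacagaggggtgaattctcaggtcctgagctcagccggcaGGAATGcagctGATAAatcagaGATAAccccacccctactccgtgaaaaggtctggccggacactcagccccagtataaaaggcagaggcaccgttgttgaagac
Nppa: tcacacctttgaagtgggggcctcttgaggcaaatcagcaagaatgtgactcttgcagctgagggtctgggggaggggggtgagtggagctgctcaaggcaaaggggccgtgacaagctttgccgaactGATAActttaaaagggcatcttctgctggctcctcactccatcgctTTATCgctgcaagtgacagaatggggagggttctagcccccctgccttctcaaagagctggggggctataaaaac

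The Ankrd1 window held 1 match to GATAA, at 47 to 43 bases before the start, and 2 matches to CATTCC, starting 210 and 123 bases before it. Nppb held 2 GATAA matches and 1 CATTCC match within the last 105 bases, and Nppa held 2 GATAA matches. The Rcan1 window held 3 GGAAA matches, starting 227, 193 and 163 bases before the start, and the window of its other start held none of these motifs. Across the 32536 distinct RefSeq windows of the same length, GATAA was found in 22.5%, CATTCC in 12.6% and GGAAA in 55.7%. A loose NF-κB pattern (GGG, any 5 bases, then CC) was found once in the Ankrd1 window, overlapping a CATTCC match, and in no window of Nppa, Nppb or Rcan1; it occurs in 46.0% of all windows. Of the 8 genes, 7 had a promoter entry, and Gata4 had none. A match is a run of letters and says nothing about occupancy in these hearts.

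Mean deposited signal ran from 129 to 375 per array and 7948 to 9397 probes were detected. Correlations between arrays ran from 0.953 to 0.990 over the tested probes. TRAF2LC replicate 4 stood apart with the most detected probes, and IκBαΔN replicate 2 with the lowest signal, and results that move without these arrays are also given without them. The deposited table lists its arrays in 2 sets of 8 columns, each with 2 hearts of every genotype, and within-set differences are given where a call is made. Of 6 ventricular cardiomyocyte markers listed, 5 were tested (Myh6, Myl2, Myl3, Tnni3 and Irx4), each detected on 16 arrays, and so were all 5 atrial markers (Myl7, Myl4, Sln, Bmp10 and Nr2f2), so these lists show cardiomyocyte RNA and do not show that the tissue was free of atrium. The mouse Traf2 probe read 5.78 to 6.32 in TRAF2LC, 5.72 to 5.9996 in IκBαΔN, 5.51 to 5.93 in double transgenic and 5.67 to 6.06 in control hearts, and the Nfkbia (IκBα) probe read 8.59 to 8.86, 8.11 to 8.67, 8.21 to 8.54 and 8.08 to 8.50 in the same 4 genotypes. Neither probe stood out in all carriers of its transgene, and the sources used here do not say whether either can detect the transgene, which leaves the genotype labels unchecked. All levels are log2 intensities after background correction and quantile normalization, so they carry no order between probes.

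Ankrd1 showed the largest change among the members in double transgenic against TRAF2LC and in TRAF2LC against IκBαΔN hearts. Its 2 probes are called bright and dim after their mean signal, and which transcripts each detects was not given in the sources used here. The dim probe (ILMN_2625451) read 11.18, 11.24, 11.31 and 11.53 in the 4 TRAF2LC hearts. It read 9.49, 8.86, 9.79 and 9.69 in IκBαΔN hearts, 9.64, 9.26, 9.72 and 9.33 in double transgenic hearts, and 10.49, 10.16, 10.12 and 9.70 in controls. All 4 TRAF2LC hearts lay above every heart of the other genotypes, and the double transgenic range fell inside that of IκBαΔN.

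The mean of the dim Ankrd1 probe was 11.32 ± 0.15 in TRAF2LC hearts, 9.46 ± 0.42 in IκBαΔN, 9.48 ± 0.23 in double transgenic and 10.12 ± 0.32 in control hearts (SD, n = 4 each). TRAF2LC exceeded control by 1.20 ± 0.20 on the log2 scale (SE), or 2.29-fold, with an adjusted p of 0.005 by limma and Benjamini-Hochberg adjustment over the 9449 probes. In TRAF2LC against IκBαΔN hearts the difference was 1.86 ± 0.20, or 3.63-fold (limma adjusted p = 2.02e-05). Double transgenic hearts were 3.56-fold below TRAF2LC, a log2 change of -1.83 ± 0.20 (limma adjusted p = 3.52e-05). These 3 comparisons share the TRAF2LC arrays.

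IκBαΔN hearts read -0.66 ± 0.20 and double transgenic hearts -0.64 ± 0.20 against control, with limma adjusted p of 0.240 and 0.186, so neither passed. Their 95% intervals were -1.07 to -0.25 and -1.05 to -0.22, with limma p of 0.0036 and 0.0048 before adjustment. Double transgenic and IκBαΔN hearts differed by 0.03 (95% interval -0.39 to 0.44), an interval that still allows a change of either sign. The levels therefore ran in the order TRAF2LC, control, double transgenic and IκBαΔN. Of the neighbours in that order only TRAF2LC and control differed at the adjusted threshold. The interaction of the transgenes, the double transgenic level against the sum of both single effects, was -1.17 ± 0.28 and was not called (limma adjusted p = 0.191).

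Each of these 3 differences in the dim Ankrd1 probe was of the same sign in both column sets: 1.03 and 1.36 for TRAF2LC against control, -1.88 and -1.79 for double transgenic against TRAF2LC, and 1.77 and 1.95 for TRAF2LC against IκBαΔN. Without both doubted arrays they were 1.13, -1.76 and 1.59, with limma adjusted p of 0.00295, 2.38e-05 and 1.26e-04.

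The bright Ankrd1 probe (ILMN_2950286) moved the same way with a wider spread. It read 13.62, 13.20, 12.76 and 13.84 in TRAF2LC hearts, 12.98, 11.90, 12.19 and 12.71 in IκBαΔN, 12.55, 12.15, 12.34 and 12.61 in double transgenic, and 13.29, 12.89, 12.08 and 12.53 in control hearts. TRAF2LC overlapped control and IκBαΔN, whereas all 4 double transgenic hearts lay below all 4 TRAF2LC hearts. The TRAF2LC to control difference was 0.65 ± 0.28 (limma adjusted p = 0.405), that of double transgenic to TRAF2LC was -0.94 ± 0.28 (0.0825) and that of TRAF2LC to IκBαΔN was 0.91 ± 0.28 (0.0852). The first 8 columns read 0.67 above the last 8 on this probe, a larger gap than on 98.5% of tested probes. With column set as a block the limma adjusted p of the same 3 differences were 0.046, 0.0015 and 0.00197, and within the 2 sets the differences were 0.64 and 0.67, -1.15 and -0.74, and 0.89 and 0.93. With the replicate number as a block, double transgenic against TRAF2LC also passed on the bright Ankrd1 probe (0.0152). Without TRAF2LC replicate 4 the 3 differences were 0.49, -0.78 and 0.75 (limma adjusted p = 0.860, 0.241 and 0.239), and without IκBαΔN replicate 2 as well the last was 0.57 (0.472). Without TRAF2LC replicate 3, the lowest TRAF2LC heart on this probe, Ankrd1 passed in double transgenic against TRAF2LC (-1.14, limma adjusted p = 0.0343) and in TRAF2LC against IκBαΔN (1.11, 0.042).

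**Figure D1:**
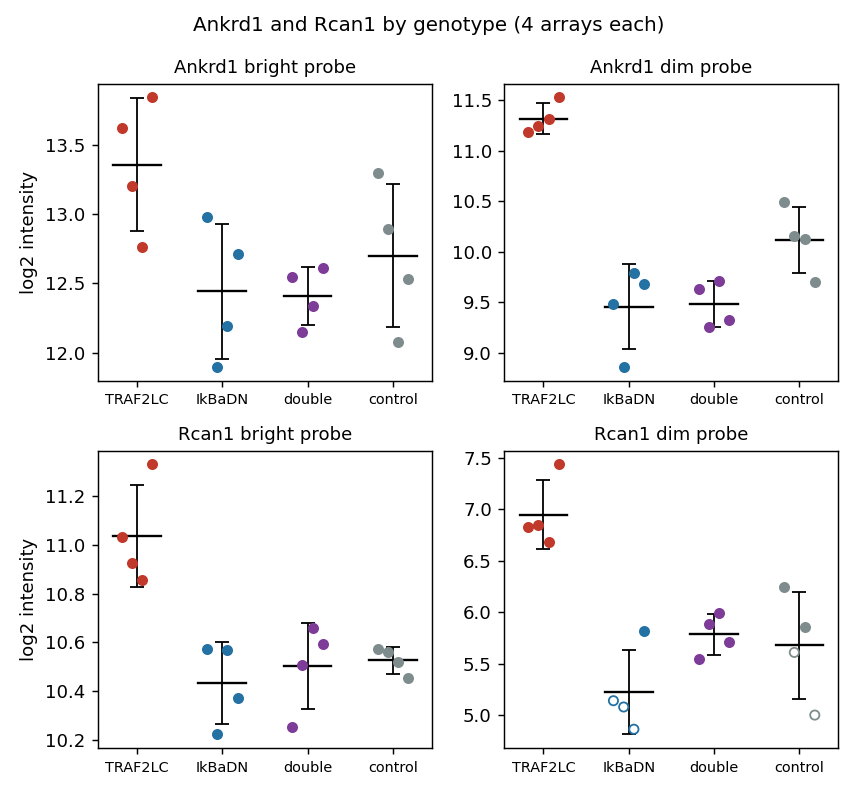
Log2 intensity (vertical axis) of the 2 Ankrd1 and 2 Rcan1 probes in the 4 genotypes, where double is the double transgenic genotype. Each point is 1 heart, the black line is the group mean, the bar is the SD (n = 4), and open points mark a detection p of 0.01 or more; the TRAF2LC points of the dim Ankrd1 probe and of both Rcan1 probes lie above all others.

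Rcan1, the calcineurin inhibitor, was higher in TRAF2LC than in IκBαΔN and double transgenic hearts on both probes. Its bright probe (ILMN_2701991) read 11.03, 10.93, 10.86 and 11.33 in TRAF2LC, 10.57, 10.22, 10.57 and 10.37 in IκBαΔN, 10.25, 10.51, 10.66 and 10.59 in double transgenic, and 10.57, 10.56, 10.52 and 10.45 in control hearts. Every TRAF2LC heart exceeded every heart of the other 3 genotypes, which overlapped each other. TRAF2LC hearts were 1.52-fold above IκBαΔN hearts (log2 0.60 ± 0.13, limma adjusted p = 0.0116), and double transgenic hearts were 1.45-fold below TRAF2LC (-0.53 ± 0.13, adjusted p = 0.026). Against control the TRAF2LC rise of 0.51 ± 0.13, or 1.43-fold, missed the threshold (limma adjusted p = 0.0732).

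The dim Rcan1 probe (ILMN_1259180) was detected on 4 TRAF2LC, 1 IκBαΔN, 4 double transgenic and 2 control arrays, so its low values lie near background. It read 6.83, 6.85, 6.68 and 7.44 in TRAF2LC, 5.14, 5.08, 4.86 and 5.81 in IκBαΔN, 5.55, 5.88, 5.99 and 5.71 in double transgenic, and 6.24, 5.61, 5.86 and 4.999 in control hearts. TRAF2LC again stood above all other hearts. Double transgenic hearts, where the probe was detected throughout, were 2.24-fold below TRAF2LC (-1.17 ± 0.24, limma adjusted p = 0.0125). The fitted difference of TRAF2LC was 1.27 ± 0.24 to control (0.0175) and 1.73 ± 0.24 to IκBαΔN (4.21e-04). The sizes of both rest on arrays where the dim Rcan1 probe was not above background, so no fold is given, and over the settings they ran from 0.88 to 1.76 and from 1.14 to 2.40.

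Several Rcan1 calls rested on single hearts, TRAF2LC replicate 4 most often. Without that heart the limma adjusted p was 0.0748 for the dim probe against control, 0.0517 for the dim probe and 0.0829 for the bright probe in double transgenic against TRAF2LC. The bright Rcan1 probe also lost that call without TRAF2LC replicate 1 (0.0557), double transgenic replicate 1 (0.0913) or double transgenic replicate 2 (0.0608), and the dim probe of Rcan1 lost its call against control without control replicate 2 (0.0666). Without TRAF2LC replicate 4 and IκBαΔN replicate 2, the bright probe of Rcan1 was 0.44 higher in TRAF2LC than in IκBαΔN hearts (adjusted p = 0.1001), while the dim probe of Rcan1 kept that call. With only the compared genotypes fitted, the bright Rcan1 probe lost its calls in double transgenic against TRAF2LC (limma adjusted p = 0.109) and TRAF2LC against IκBαΔN (0.0885). Median scaling in place of quantile normalization also cost it the former (0.615). Within the column sets the bright Rcan1 probe differed by 0.71 and 0.50 between TRAF2LC and IκBαΔN and by -0.76 and -0.31 between double transgenic and TRAF2LC hearts. The dim Rcan1 probe differed by 1.21 and 1.34 from control, by 1.66 and 1.79 from IκBαΔN, and by -1.51 and -0.83 in double transgenic against TRAF2LC hearts.

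Rcan1 levels ran in the order TRAF2LC, control, double transgenic and IκBαΔN on the bright probe, and TRAF2LC, double transgenic, control and IκBαΔN on the dim one. No difference among IκBαΔN, double transgenic and control hearts passed on either probe (limma adjusted p 0.727 to 0.978). For the bright probe the 95% interval of IκBαΔN against control was -0.36 to 0.17. The dim probe read 0.56 higher in double transgenic than in IκBαΔN hearts, with a 95% interval of 0.04 to 1.08. Its limma p was 0.0353 before and 0.852 after adjustment, and it was detected on 1 IκBαΔN array.

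The signals of the 2 probes of a gene were also compared within each array, as dim minus bright. For Rcan1 this difference was -4.72 ± 0.11 in double transgenic and -4.09 ± 0.14 in TRAF2LC hearts (SD over 4 hearts), which did not overlap (exact two-sided permutation p = 0.0286, the smallest that 4 against 4 allows, 0.0429 adjusted over the 6 tests made). In IκBαΔN and control hearts, where the dim probe was detected on 1 and 2 arrays, background sets part of it, and those tests are not used. The adjustment still counts them, each at an exact permutation p of 0.0286. This lowers the adjusted p of the other tests, so none is read as passing. For Ankrd1 the difference was -2.04 ± 0.44 in TRAF2LC, -2.99 ± 0.45 in IκBαΔN, -2.93 ± 0.27 in double transgenic and -2.58 ± 0.42 in control hearts. Double transgenic and TRAF2LC hearts did not overlap (exact permutation p = 0.0286, adjusted 0.0429). TRAF2LC hearts overlapped IκBαΔN (exact permutation p = 0.0571, adjusted 0.0686) and control hearts (0.143). The tests were chosen after the values had been seen, on the pattern they test, and support nothing further.

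**Figure D2:**
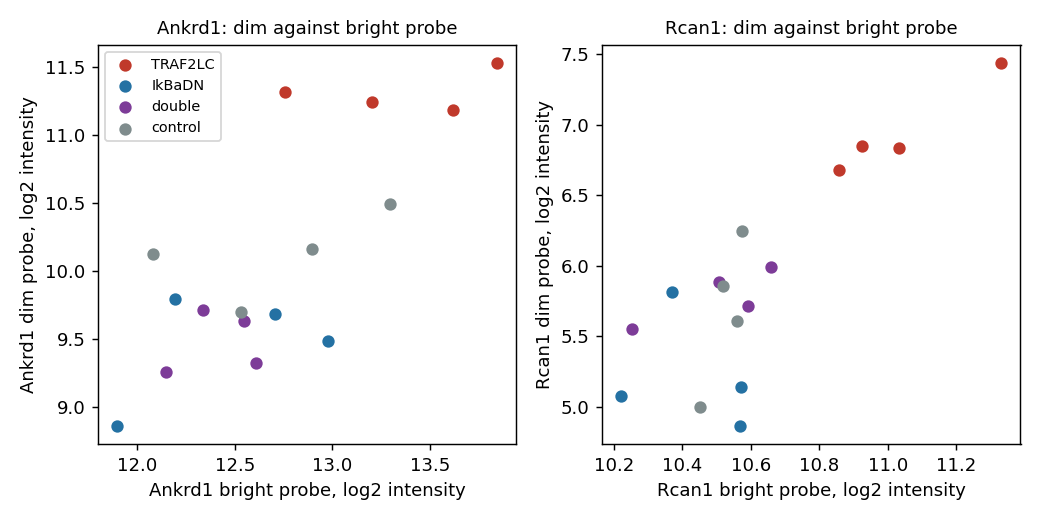
Dim probe (vertical axis) against bright probe (horizontal axis), both in log2 intensity, for Ankrd1 and Rcan1, with 1 point for each of the 16 hearts coloured by genotype (double is double transgenic). In both panels the 4 TRAF2LC hearts lie at the top; for Ankrd1 they spread along the bright axis from 12.76 to 13.84 while the dim probe stays between 11.18 and 11.53.

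Nppb, the gene of BNP, did not pass in any comparison. It read 13.84, 13.25, 13.48 and 13.89 in TRAF2LC, 13.55, 12.75, 13.11 and 13.31 in IκBαΔN, 13.22, 13.10, 13.33 and 13.53 in double transgenic, and 13.34, 13.39, 13.03 and 12.77 in control hearts. TRAF2LC replicates 1 and 4 were the highest of the 16 hearts, and the ranges of all 4 genotypes overlapped. The largest difference was 0.48 ± 0.19 in TRAF2LC against control, or 1.40-fold, with a 95% interval of 0.08 to 0.88 and a limma p of 0.021 before and 0.353 after adjustment. Within the column sets this Nppb difference was 0.50 and 0.47. TRAF2LC against IκBαΔN gave 0.43 and double transgenic against TRAF2LC gave -0.32 (limma adjusted p = 0.259 and 0.461). Without both doubted arrays the Nppb difference of TRAF2LC was 0.39 to control and 0.20 to IκBαΔN (0.627 and 0.774).

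Nppa, the gene of ANP, showed no difference that passed, on a probe whose signal lies close to the top of the scale. It read 15.15, 15.24, 15.09 and 15.05 in TRAF2LC, 15.18, 14.91, 14.86 and 15.15 in IκBαΔN, 14.80, 15.09, 15.05 and 15.18 in double transgenic, and 15.18, 15.18, 14.98 and 15.15 in control hearts. All 4 ranges overlapped, and TRAF2LC differed from control by 0.01 (95% interval -0.23 to 0.24, limma adjusted p = 0.993). Over the 6 pairwise comparisons the adjusted p ran from 0.712 to 0.997.

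The Nppa probe ranked 7 to 19 among the 25697 probes of each array, where quantile normalization sets every array to the same maximum of 15.53 and leaves little room for a change. On the authors' scaled linear intensities, which lack that ceiling, Nppa ranged from 29812 to 38915 in TRAF2LC, 31715 to 39916 in IκBαΔN, 26290 to 36939 in double transgenic and 36600 to 39434 in control hearts. Atrial tissue carries much Nppa, and the summed linear level of the 5 atrial markers was 29756 to 41971 in TRAF2LC, 31612 to 38526 in IκBαΔN, 33312 to 45763 in double transgenic and 40108 to 45143 in control hearts. Against control all 5 atrial markers read lower in TRAF2LC and in IκBαΔN hearts (median log2 change -0.36 and -0.31). Their limma adjusted p was at least 0.405 and 0.392. In double transgenic hearts 4 read lower and 1 higher (median -0.17). The part of atrial tissue in the Nppa level was not tested. In whole ventricle, a change in the number of cells of a type and a change in RNA per cell cannot be told apart.

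Fhl1 passed in no comparison on either probe. Its bright probe averaged 11.44 ± 0.11 in TRAF2LC, 11.55 ± 0.13 in IκBαΔN, 11.51 ± 0.19 in double transgenic and 11.41 ± 0.11 in control hearts (SD, n = 4 each). Over both Fhl1 probes the 6 pairwise log2 changes lay between -0.11 and 0.14. The 95% intervals for TRAF2LC against control were -0.21 to 0.28 and -0.17 to 0.25. Over the settings TRAF2LC against IκBαΔN ran from -0.16 to 0.27 on the bright and -0.16 to 0.28 on the dim Fhl1 probe. The sign of such small changes thus depends on the processing, and in this comparison it changed under 1 alternative for each probe. Median scaling set the all-probe median at 0.36 in the same comparison.

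Mef2c had 3 tested probes, none of which passed in any comparison. The bright probe averaged 9.78 ± 0.38 in TRAF2LC, 9.83 ± 0.22 in IκBαΔN, 9.82 ± 0.22 in double transgenic and 9.94 ± 0.24 in control hearts, and the middle probe 8.18 ± 0.29, 8.34 ± 0.34, 8.20 ± 0.39 and 8.34 ± 0.22 in the same 4 genotypes. The dim Mef2c probe varied most among the hearts of a genotype. It read 8.09, 7.35, 7.33 and 6.08 in TRAF2LC, 8.34, 8.13, 7.96 and 7.49 in IκBαΔN, 8.53, 7.73, 7.67 and 7.59 in double transgenic, and 8.62, 8.12, 7.70 and 7.25 in control hearts. TRAF2LC replicate 4 was the lowest of the 16 hearts, and the groups overlapped. The dim Mef2c probe differed by -0.72 ± 0.36 between TRAF2LC and control (limma adjusted p = 0.500) and by -0.77 ± 0.36 between TRAF2LC and IκBαΔN (0.299). Both values rested on TRAF2LC replicate 4: without it they were -0.34 and -0.39 (0.969 and 0.632).

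Uchl1 was detected on 15 of 16 arrays, near background, with means of 6.68 ± 0.38 in TRAF2LC, 6.42 ± 0.58 in IκBαΔN, 6.57 ± 0.22 in double transgenic and 6.32 ± 0.32 in control hearts (SD, n = 4 each). TRAF2LC against control gave 0.35 ± 0.25 (limma adjusted p = 0.701), and 0.18 without TRAF2LC replicate 4 (0.986). Uchl1 is abundant in nerve, and 5 of the 7 nerve and neuroendocrine markers listed (Tubb3, Th, Prph, Snap25 and Chga) were detected on 0 arrays. The other 2, Dbh and Stmn2, summed to 132 to 161 in TRAF2LC, 166 to 239 in IκBαΔN, 124 to 205 in double transgenic and 158 to 178 in control hearts on the linear scale. Gata4 was detected on 2 TRAF2LC, 1 IκBαΔN, 0 double transgenic and 0 control arrays, which limits what this probe can say about the factor.

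**Figure D3:**
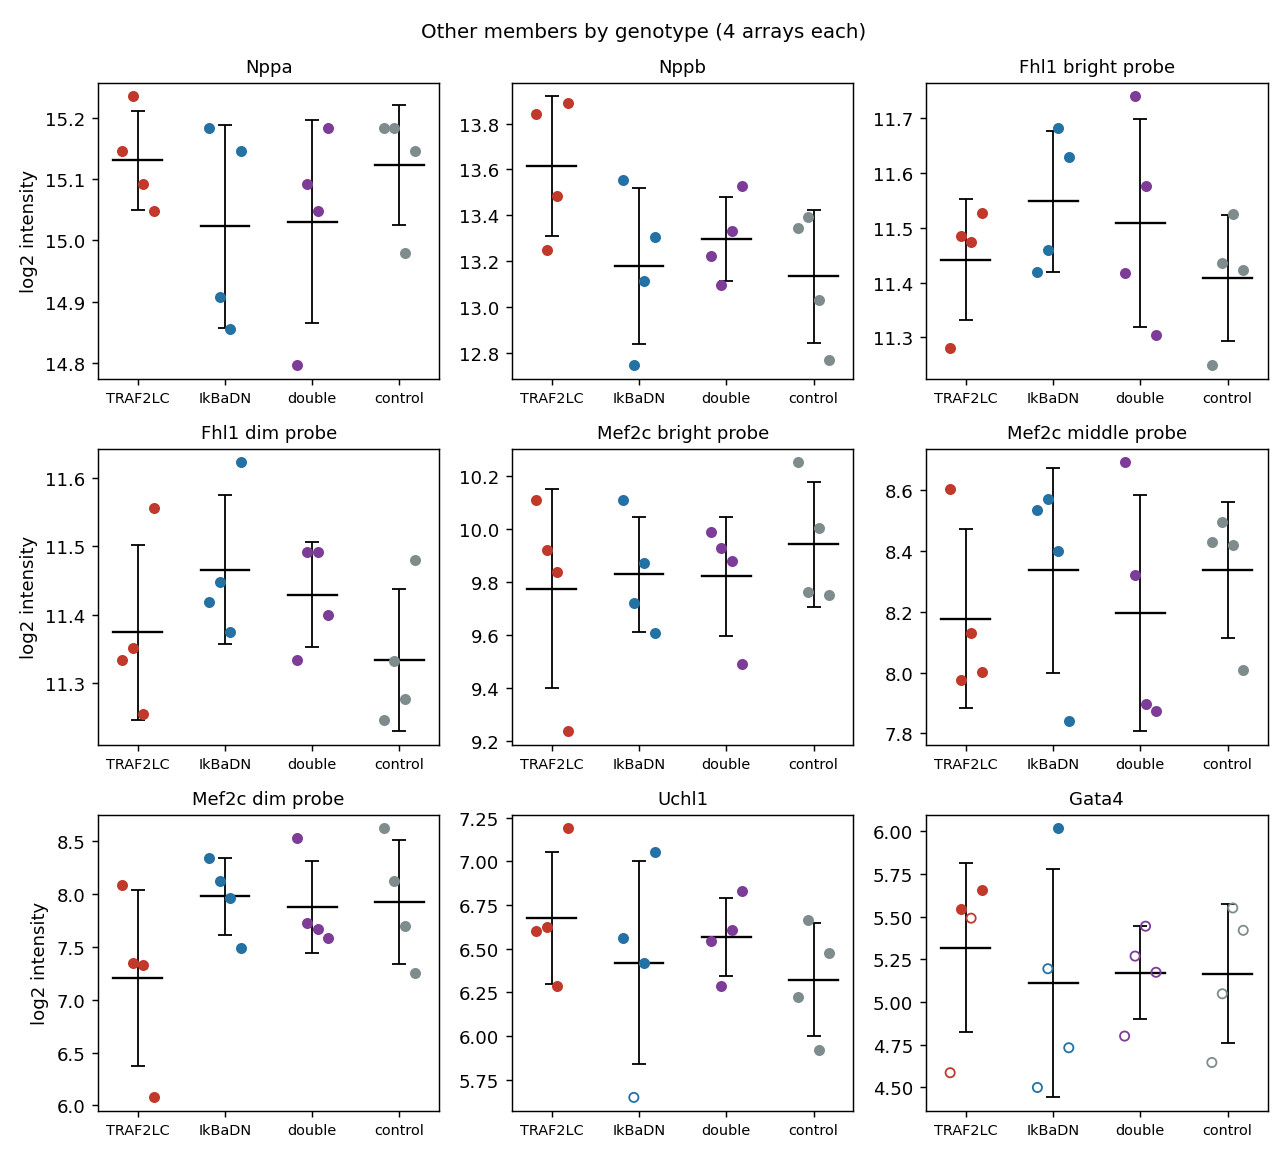
Log2 intensity (vertical axis) of the Nppa, Nppb, Fhl1, Gata4, Mef2c and Uchl1 probes in the 4 genotypes, with double for double transgenic. Points are single hearts, black lines means and bars the SD (n = 4), and open points mark a detection p of 0.01 or more; in every panel the genotypes overlap.

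Counting each gene by its brightest probe, 0 of 7 tested members were called in TRAF2LC against control by limma at an adjusted p of 0.05, against 1.12% of all genes, and 3 had an unadjusted p under 0.05. By probe 5 of 12 had such a p, against 10.7% of all probes. Counting probes, 2 of 12 were called, both higher, where 1.04% of all probes tested were called and 0.741% were called higher. The median change was 0.35 over the 7 genes and 0.20 over the 12 probes, beside -0.01 over all probes. TRAF2LC ranges lay wholly above those of control on 3 member probes, against 3.97% of all probes.

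In double transgenic against TRAF2LC hearts 1 of 7 genes was called, Rcan1, which fell, against 3.04% of all genes; with the replicate number as a block 2 were called, Ankrd1 and Rcan1. By probe, 3 of 12 were called, all lower, where 2.91% of all probes were called and 1.59% called lower. Of the 12 probes, 4 had ranges wholly below those of TRAF2LC, against 4.52% of all probes. The median of the members was -0.11 by gene and -0.10 by probe, and that of all probes 0.01. In TRAF2LC against IκBαΔN hearts Rcan1 was the 1 of 7 genes called, and it was higher; 3.59% of all genes were called. There 3 of 12 probes were called, all higher, against 3.43% of all probes called and 1.99% called higher, and the ranges of 3 probes lay wholly above, against 4.62% of all. The member median was 0.25 by gene and 0.18 by probe, beside 0.00 over all probes.

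No member passed the test against control in either genotype with IκBαΔN. In IκBαΔN against control 0 of 12 probes were called and 1 had an unadjusted p under 0.05, with 0.444% of all probes called and 7.65% at that unadjusted p. In double transgenic against control the counts were 0 and 1, with 0.847% called and 10.8% at that p, and in double transgenic against IκBαΔN 0 and 1, with 0.0106% and 5.78%. The interaction called 0 member probes, with 2 at an unadjusted p under 0.05, beside 0.0212% of all probes called and 6.21% at that p.

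**Figure D4:**
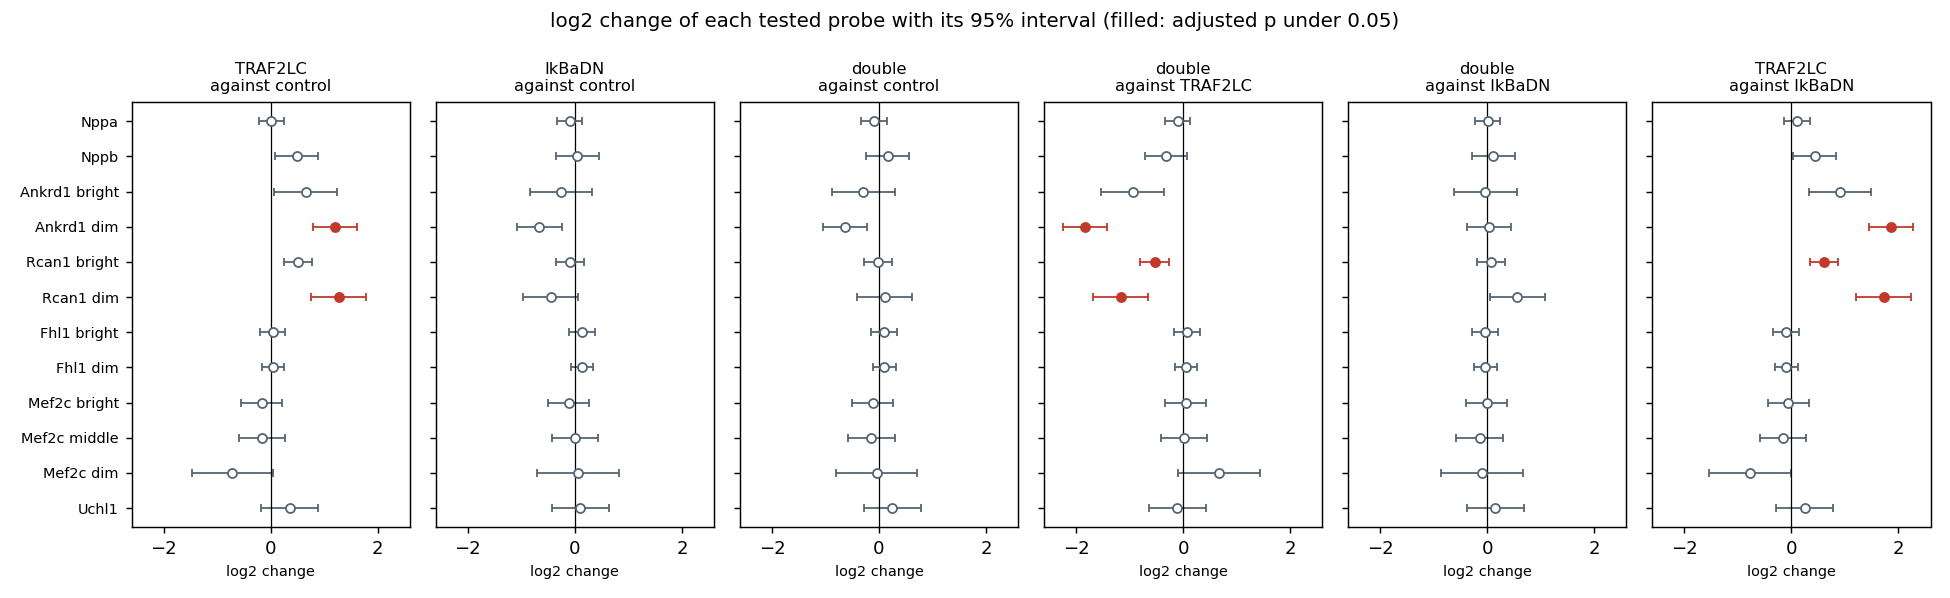
Log2 change (horizontal axis) of the 12 tested probes in the 6 pairwise comparisons, with 95% intervals as bars and filled red points for an adjusted p under 0.05 (double is double transgenic). The called probes are those of Ankrd1 (dim) and Rcan1, and they are called only in the 3 comparisons that involve TRAF2LC hearts without IκBαΔN on 1 side.

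In the wider pathways around these genes few calls were made, as over all genes. Of 87 genes in 8 lists, 66 were tested, and 1 was called in TRAF2LC against control, in double transgenic against TRAF2LC and in TRAF2LC against IκBαΔN, each time Myh7, the slow myosin heavy chain of fetal and failing ventricle. This is 1.52% of the 66, beside 1.12%, 3.04% and 3.59% of all genes called in these comparisons. Myh7 was 6.03-fold higher in TRAF2LC than in control hearts (log2 2.59 ± 0.39, limma adjusted p = 0.0029) and -3.62 on the log2 scale in double transgenic against TRAF2LC hearts (3.52e-05). The median change of the 66 genes was -0.05 in TRAF2LC against control, beside -0.01 over all probes. Of the 7 contractile and calcium markers tested, Myh7 was the only one called, and Acta1, skeletal actin, read 1.04 ± 0.33 in TRAF2LC against control (limma adjusted p = 0.223).

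Genes that make, sense and clear natriuretic peptides showed no call in any of the 3 comparisons with TRAF2LC hearts: 0 of the 8 tested of 12, with 0, 1 and 3 at an unadjusted limma p under 0.05 in TRAF2LC against control, double transgenic against TRAF2LC and TRAF2LC against IκBαΔN. Over all probes 10.7%, 15.6% and 16.3% had such a p in these comparisons, the background for this and the next list counts. Corin, the protease that cuts pro-ANP, read -0.12 ± 0.14 and Npr3, the clearance receptor, 0.30 ± 0.15 in TRAF2LC against control (adjusted p = 0.840 and 0.503). Around Rcan1, 0 of 13 tested calcineurin and NFAT genes were called, with 1 at an unadjusted p under 0.05 in each of these comparisons. Ppp3ca, a catalytic subunit of calcineurin, read -0.20 ± 0.14, and Rcan2, the paralog of Rcan1, 0.16 ± 0.11, in TRAF2LC against control (limma adjusted p = 0.698 and 0.680).

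Around Ankrd1 and Fhl1, 0 of 10 tested titin and Z-disc genes were called, with 0, 0 and 1 at an unadjusted limma p under 0.05. Ankrd23, a relative of Ankrd1 on titin, read 0.22 ± 0.23 and Fhl2 0.04 ± 0.15 in TRAF2LC against control (adjusted p = 0.827 and 0.962). The 8 tested cardiac transcription factors (0, 1 and 1 at an unadjusted p under 0.05), 6 MEF2 regulators (0, 2 and 1), 7 ubiquitin hydrolases and ligases (0 in each) and 7 growth and early stress genes (1, 1 and 2) also had 0 calls in these 3 comparisons. Nkx2-5 read 0.10 ± 0.10 and Gata6, the relative of Gata4, -0.10 ± 0.18 in TRAF2LC against control (limma adjusted p = 0.816 and 0.911).

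Markers of other cells moved in some of the same comparisons, and their part in the member results was not tested. Of 5 macrophage markers listed, 2 were tested and Adgre1 was detected on 0 arrays. Cx3cr1 was 1.82-fold higher in TRAF2LC than in control hearts (limma adjusted p = 0.0258), -0.70 in double transgenic against TRAF2LC (0.0381) and 0.75 in TRAF2LC against IκBαΔN hearts (0.0253) on the log2 scale. These are the comparisons in which the dim probes of Ankrd1 and Rcan1 were called. The summed linear level of the macrophage markers was 1087 to 1799 in TRAF2LC, 856 to 1199 in IκBαΔN, 843 to 1166 in double transgenic and 884 to 1180 in control hearts. Lyz2, the other tested marker, was not called and makes up most of this sum. It read 10.69 on the log2 scale in TRAF2LC replicate 4, which gave the top of the range, and 9.92 to 10.16 in the other TRAF2LC hearts. The 4 tested smooth muscle and pericyte markers of 5 summed to 10031 to 13925 in TRAF2LC, 13901 to 25178 in IκBαΔN, 20719 to 24010 in double transgenic and 10987 to 14706 in control hearts, with Cnn1 detected on 0 arrays. Among them Acta2 was 2.00-fold higher in double transgenic than in control hearts (limma adjusted p = 0.014) and 1.95-fold higher than in TRAF2LC hearts (0.00678). Against control Acta2 was the 1 tested marker that read higher, and the other 3 read lower (median log2 change -0.03). Against TRAF2LC all 4 read higher (median 0.34). Acta2 was the brightest of the 4, so these sums mostly follow it. Fibroblast sums (5 tested of 6, Postn on 0 arrays) were 6232 to 6948 in TRAF2LC, 5691 to 7845 in IκBαΔN, 4769 to 6541 in double transgenic and 5500 to 7192 in control hearts. Endothelial sums (4 of 4) were 1193 to 1352, 1302 to 1449, 1260 to 1568 and 1250 to 1362 in the same 4 genotypes. Ventricular cardiomyocyte sums were 99520 to 105697 in TRAF2LC, 105595 to 110933 in IκBαΔN, 105523 to 110814 in double transgenic and 104794 to 113498 in control hearts. Of the 5 skeletal muscle markers 0 were tested.

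The genes most like each member were ranked by the Pearson correlation of log2 intensity over the 16 arrays, among 6794 genes. For Rcan1 they were Tgfb3 (0.94), Laptm5 (0.92) and Jpt1 (0.91), and for Ankrd1 Pcyox1 (0.88), Tgm2 (0.87) and Tmem108 (0.87). Tmem108 (0.84) also stood near Nppb, after Rbm12 (0.84) and before Tnfrsf12a (0.83). Nppa was nearest to Epc2 (0.92), then Trap1 and Fam160a2 (0.79 each). Fhl1 was nearest to Naa80 (0.79), Angptl4 (0.78) and Atf5 (0.75), Mef2c to Atp6v0a2 (0.88), Chrm2 (0.87) and Sgms1 (0.86), and Uchl1 to Psen2 (0.85), Hyi (0.84) and Ube4b (0.84). The arrays share genotypes, and each gene named is the top of a long ranking, so the values describe these 16 arrays only.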

How the data were processed

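Total RNA from 16 left ventricles was labelled with biotin and hybridised to Illumina bead arrays. The authors deposited an intensity and a detection p-value per probe and array, per the file headers; BeadStudio and GenomeStudio are named in the submitters' processing notes, without versions. Some intensities lie below 0 (14378 probes on at least 1 array), so a background had been subtracted. The authors' series matrix holds the same intensities times 1 factor per array, which gives every array a mean of 276, with column medians of 11.0 to 15.4; its direction and centring were checked against the unscaled values.

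The members, gene lists and tests were chosen with earlier results of these data known. In R 4.3.3 with limma 3.58.1, intensities were corrected with nec (offset 16), quantile normalized and taken to log2. Probes with detection p under 0.01 on 4 or more arrays (9449) were fitted by lmFit and eBayes with 4 genotype means (12 residual and 4.53 prior degrees of freedom), two-sided, with Benjamini-Hochberg adjustment over all of them and a threshold of 0.05, for 7 comparisons including the interaction. The fit was tested on simulated data. Probe differences were tested by exact permutation with SciPy 1.17.1. Probes were named from the platform annotation: 23978 have 1 symbol and 1719 none, and 23962 matched RefSeq (GRCm38.p6) by gene number with 0 symbols changed; Ctgf was found as Ccn2.

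All 8 members are named, with every probe, a gene being given by its brightest tested probe. For the 8 pathway lists and 8 cell type marker lists, called genes are named, and the 3 genes most like each member by Pearson correlation; other list genes named in the text were picked for their role. Hearts are numbered 1 to 4 in each genotype. Of 24 pairs of same-numbered arrays, 16 had deviations correlated over 0.1 (range -0.293 to 0.405). All 4 pairs did so for TRAF2LC and double transgenic hearts (0.248 to 0.309), whose same-numbered hearts also share a column set. For these genotypes the fit with the number as a block is given beside results it changes. For the other 5 pairs of genotypes not all 4 did so, and the numbers were not taken as pairs. The alternatives changed the background step, normalization, offset, filter, samples fitted, array weights, replicate and column set blocks, and left out arrays; leaving out both doubted arrays was added after seeing the data. The number of arrays limits the precision. The limma p-values set a difference between genotype means against the spread between hearts, moderated over all tested probes. No whole genome was used here.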

Additional observations from a re-analysis of the deposited data

Results flagged for a closer look

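In 3 of the 52 groups of 4 arrays screened, 1 heart lay far from the other 3, with a gap, as a share of the group's range, past Dixon's 95% critical value. Chance flags about 1 in 20 groups. Gata4 read 4.59 in TRAF2LC replicate 1, where the nearest TRAF2LC heart read 5.49, on a probe that is near background. The middle Mef2c probe read 8.01 in control replicate 4, with 8.42 as the nearest control. The dim Mef2c probe read 8.53 in double transgenic replicate 1, with 7.73 as the nearest double transgenic heart. None of these 3 probes was called in a comparison as reported.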

How the results depend on the processing

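Of 84 pairs of a member probe and a comparison, 8 were called. Over 213 alternatives for these, 197 kept the call, 16 lost it and 0 changed sign. The dim Ankrd1 probe kept its 3 calls under all 11 settings and all 16 omissions of an array: TRAF2LC against control ran from 1.06 to 1.32 with adjusted p of at most 0.025. Under array weights it was also called in double transgenic against control (-0.67, adjusted p = 0.0411) and in the interaction (-1.21, 0.0495). Of the 76 pairs not called, 40 changed sign under some setting, and 13 of their 2029 alternatives were called.

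Member genes called in TRAF2LC against control were 0, and 1 with the offset of 50 (Rcan1) or with the column set block (Ankrd1). In double transgenic against TRAF2LC the count was 1, and 0 with median scaling, with only the compared genotypes fitted and without both doubted arrays, 2 with the offset of 50, the replicate block and the column set block, and 0 to 2 with 1 array left out. In TRAF2LC against IκBαΔN it was 1, and 2 with median scaling, the replicate block and the column set block, 0 with only the compared genotypes fitted and without both doubted arrays, and 1 to 2 with 1 array left out. The Rcan1 dim call against control was also lost with no background step (adjusted p = 0.0525) and with only the compared genotypes fitted (0.0892). Causes were not tested. The numbers pair TRAF2LC with double transgenic hearts only by correlation (7 of 16 arrays correlated best with their own number). Same-numbered hearts of these genotypes also lie in the same column set. With control, same-numbered TRAF2LC hearts correlated at 0.405 and 0.292 in a shared set and at -0.293 and 0.034 otherwise. With IκBαΔN, always in a shared set, they correlated at 0.329, -0.041, 0.296 and 0.216. The parts of number and set were not tested. With the replicate block the bright Ankrd1 probe was called in double transgenic against TRAF2LC (adjusted p = 0.0152) and TRAF2LC against IκBαΔN (0.0175), and the dim Mef2c probe in the last (0.0251). No other member call changed with it.

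Counts over all probes ranged over the settings from 34 to 117 (98 as reported) in TRAF2LC against control, 18 to 66 (42) in IκBαΔN against control, 26 to 168 (80) in double transgenic against control, 120 to 390 (275) in double transgenic against TRAF2LC, 0 to 3 (1) in double transgenic against IκBαΔN, 126 to 573 (324) in TRAF2LC against IκBαΔN and 2 to 18 (2) for the interaction. With arrays left out the lowest were 40, 21, 42, 185, 1, 202 and 2, and the highest for the interaction was 11. Median scaling set the all-probe median at 0.13 in TRAF2LC against control, -0.23 in IκBαΔN against control and 0.36 in TRAF2LC against IκBαΔN. It gave 67 higher and 3 lower calls in the first (70 and 28 as reported), 549 and 24 in the last (188 and 136), 35 and 85 in double transgenic against TRAF2LC (125 and 150), 7 and 11 in IκBαΔN against control (24 and 18) and 19 and 7 in double transgenic against control (47 and 33). The authors' scaled values gave 70 and 9 in TRAF2LC against control, 274 and 72 in TRAF2LC against IκBαΔN and 49 and 21 in double transgenic against control. Under median scaling the dim Ankrd1 probe read 1.32 in TRAF2LC against control and 2.26 in TRAF2LC against IκBαΔN (1.20 and 1.86 as reported). The median scaling values include the shifts of all probes, 0.13 and 0.36. Near background, Gata4, Uchl1 and the dim Rcan1 probe carry the least information.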

Other observations

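Several members differed between the column sets. The first 8 columns minus the last 8 gave 0.67 on the bright Ankrd1 probe, -0.60 on Gata4, 0.42 on Uchl1 and 0.41 on Nppb, larger gaps than on 98.5%, 97.5%, 92.6% and 91.7% of tested probes, and Gata4 and Uchl1 lie near background. The other 9 member probes differed by -0.14 to 0.27, and the median over all tested probes was 0.01. Each set holds 2 hearts of every genotype, and what the sets stand for was not given in the sources used here.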
